A study of Mus musculus with 20 samples.

Results

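The endoplasmic reticulum (ER) is where secreted and membrane proteins fold, and 35 genes of its folding and quality control machinery are described here in mouse retina. They were chosen by name with earlier results of these data known, so their counts beside all genes are a description. They fall into 4 functional classes. These are 11 chaperones and their co-factors, 6 genes of oxidative folding and 4 UPR (unfolded protein response) sensors and regulators. The last of these is called UPR sensors for short, although its member Xbp1 is a regulator and not a sensor. The remaining class holds 14 genes of ER-associated degradation (ERAD) and of the translocon. All 35 were found among the 35006 genes of the count files, and all 35 passed the default expression filter of edgeR in each comparison, so no member is left out of the counts given.

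RNA came from 1 retina each of 20 C57BL/6J wild-type mice, so the replicates of a group are separate animals. NACET (N-acetylcysteine ethyl ester), a cell-permeable ester form of cysteine, was given in the drinking water for 5 days at a dose of 50 mg/kg per day, and control mice drank water without it. There were 4 control and 6 NACET mice at each of the young and old ages, compared to ask how age and NACET alter retinal transcription. Young controls were 119 days old, 2 males and 2 females by their labels. Young NACET mice were 129 days (4 labelled males) or 119 days (2 labelled females) by their titles. For replicate 6 the batch tag gives 129 days where the title gives 119. The 129-day mice have no control of their own age. Old controls were all 668 days old and labelled male. Old NACET mice were labelled male and were 668, 581 or 574 days old, with 2 mice at each age, so that the 581-day and 574-day mice have no control of their own age.

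Libraries held 17.7 to 31.1 M gene counts (M, 1e+06). The retina label was borne out by its markers: all 10 rod markers were present in every group, with a summed level of 62885 to 105186 CPM, where CPM is counts per M gene counts, with library sizes adjusted by TMM. A few libraries stood apart in genes of other tissues. The 8 lens genes summed to 10896 CPM in old NACET replicate 1 and to at most 22.0 CPM elsewhere. The 8 corneal and conjunctival genes summed to 442 CPM in old control replicate 2 and to 400 CPM in young NACET replicate 4. In addition, the library of old control replicate 4 went against its label of male, with Xist above 10 CPM. In whole retina, fewer cells of a type and less RNA per cell cannot be told apart.

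As background, proteins entering the ER through the translocon are bound by chaperones such as BiP (Hspa5), receive disulfide bonds from protein disulfide isomerases, and are sent to ERAD when they fail to fold. When unfolded proteins accumulate, the sensors IRE1 (Ern1), PERK (Eif2ak3) and ATF6 start the unfolded protein response, in which ATF6 and the spliced form of XBP1 bind ER stress response elements in the promoters of chaperone and ERAD genes. Photoreceptors make large amounts of rhodopsin in the ER, and misfolding of rhodopsin is a known cause of their degeneration.

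The promoters of the members were read from the RefSeq table of the GRCm38.p6 assembly, 250 bases before to 50 bases after each start. A window was present for 29 of the 35 members. The 6 without a window were Manf, Hyou1, Sil1, Atf6, Derl1 and Sec61a1. The ER stress response element (ERSE, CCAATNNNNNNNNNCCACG, either strand) was found in 10 of these 29 members (34.5%), against 0.137% of all 27025 genes with a window. It occurred in 5 of 8 chaperones with a window, 3 of 6 oxidative folding genes, 0 of 3 UPR sensors and 2 of 12 ERAD and translocon genes. ERSE-II (ATTGGNCCACG, either strand) was found in 2 members, Dnajb11 and Herpud1, against 0.0444% of these genes. The UPRE letters TGACGTGG were found in Vcp alone among the members, against 0.714% of these genes. None of these motifs overlapped another in a member. A match describes the letters only and was not shown to be a bound site. The 250 bases before the start are shown for the 4 members that rose under NACET in old mice and held an ERSE, 5′ to 3′ in the direction of the gene, with the ERSE in capitals.
Hspa5, chr2:34771840-34772089, plus strand: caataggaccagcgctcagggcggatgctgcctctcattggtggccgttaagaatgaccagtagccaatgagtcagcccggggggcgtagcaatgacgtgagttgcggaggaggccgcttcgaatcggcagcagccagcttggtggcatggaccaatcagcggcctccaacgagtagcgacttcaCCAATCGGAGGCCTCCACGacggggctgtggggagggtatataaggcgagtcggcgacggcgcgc
Calr, chr8:84846932-84847181, minus strand: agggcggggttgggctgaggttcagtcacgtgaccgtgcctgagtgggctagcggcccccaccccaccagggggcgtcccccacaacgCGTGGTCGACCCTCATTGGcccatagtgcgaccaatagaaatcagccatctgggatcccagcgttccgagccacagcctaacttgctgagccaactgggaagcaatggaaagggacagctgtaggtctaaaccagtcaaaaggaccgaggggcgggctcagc
Pdia6, chr12:17266339-17266588, plus strand: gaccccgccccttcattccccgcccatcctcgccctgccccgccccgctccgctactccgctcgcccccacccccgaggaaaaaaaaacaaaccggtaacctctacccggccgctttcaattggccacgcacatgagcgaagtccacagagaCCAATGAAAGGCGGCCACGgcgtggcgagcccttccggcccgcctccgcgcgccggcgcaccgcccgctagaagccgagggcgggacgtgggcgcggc
Creld2, chr15:88819396-88819645, plus strand: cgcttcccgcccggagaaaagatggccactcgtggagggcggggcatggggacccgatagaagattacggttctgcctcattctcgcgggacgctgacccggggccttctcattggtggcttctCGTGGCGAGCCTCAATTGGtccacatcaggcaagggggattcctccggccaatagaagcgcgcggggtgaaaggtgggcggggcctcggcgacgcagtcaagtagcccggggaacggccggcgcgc

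In Calr and Creld2 the element lies on the strand opposite to the gene, and so reads from right to left as the reverse complement. The element begins 65 bases before the start in Hspa5, 162 in Calr, 98 in Pdia6 and 126 in Creld2. Xbp1 had the largest log2 change of the called members and is shown beside them, because none of the 3 motifs was found in its window, which says only that these letters are not in it.
Xbp1, chr11:5520391-5520640, plus strand: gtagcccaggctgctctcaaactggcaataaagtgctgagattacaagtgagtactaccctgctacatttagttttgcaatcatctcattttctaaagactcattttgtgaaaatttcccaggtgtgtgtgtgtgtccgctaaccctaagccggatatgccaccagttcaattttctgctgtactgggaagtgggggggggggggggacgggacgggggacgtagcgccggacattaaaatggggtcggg

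The sites of the other 6 members with an ERSE, none of which was called in any comparison, are given with 5 bases on each side and the element in capitals. Hsp90b1 was the only member with 2 elements, 1 on each strand.
Hsp90b1, chr10:86705638-86705656: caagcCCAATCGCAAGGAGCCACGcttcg
Hsp90b1, chr10:86705533-86705551: gagtgCGTGGTGAGGCACGATTGGtgagt
Canx, chr11:50325800-50325818: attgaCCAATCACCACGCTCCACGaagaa
Dnajc3, chr14:118937827-118937845: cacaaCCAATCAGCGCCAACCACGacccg
Ero1lb, chr13:12565682-12565700: ggcctCGTGGTCCCGCCTCATTGGccgcc
Syvn1, chr19:6046532-6046550: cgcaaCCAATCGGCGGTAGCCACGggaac
Derl3, chr10:75893242-75893260: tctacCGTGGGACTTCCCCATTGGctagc

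Levels of different genes were compared per kilobase of exon. In young controls the most abundant members were 4 chaperones. Hsp90b1, which encodes the HSP90 of the ER, stood at 132 ± 10.6 CPM per kb (SD, n = 4) and the lectin chaperone gene Calr at 113 ± 11.7 CPM per kb. The membrane lectin chaperone gene Canx followed at 97.4 ± 7.29 and Hspa5 at 92.5 ± 14.6 CPM per kb, and these neighbours in the order lie within their spread. P4hb, which encodes the protein disulfide isomerase PDI, led oxidative folding at 74.5 ± 6.24 CPM per kb. The most abundant ERAD gene was Os9, a lectin that recognizes misfolded glycoproteins, at 36.4 ± 1.38 CPM per kb, and the most abundant regulator was Xbp1 at 21.2 ± 3.21 CPM per kb. The sensors Ern1 (7.14 ± 0.49) and Eif2ak3 (10.1 ± 0.46 CPM per kb) were lower than Atf6 (18.3 ± 1.24 CPM per kb). Derl3, a derlin of ERAD, was nearly absent, at 0.468 ± 0.154 CPM per kb. Counting ignored strand, and 15.7% of the exon length of Hsp90b1, 7.26% of Vcp and 4.14% of Manf is shared with other annotated genes, so these 3 levels are uncertain.

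Genes of the folding machinery and the regulator Xbp1 were higher in old mice given NACET than in old controls. Of the 35 members, 6 rose and 0 fell at an adjusted p under 0.05 (edgeR quasi-likelihood test, Benjamini-Hochberg over all genes tested): Hspa5, Calr, Manf, Pdia6, Creld2 and Xbp1. Their log2 changes ran from 0.29 to 0.42, or 1.22-fold to 1.33-fold. Over all 16562 genes tested, 0.543% were called in either direction and 0.260% were called higher. Because the members were chosen with earlier results of these data known, such shares do not test the list. The called members were 3 of 11 chaperones, 2 of 6 oxidative folding genes, 1 of 4 UPR sensors and regulators, and 0 of 14 ERAD and translocon genes. At an unadjusted p under 0.05, 14 members were higher (7 chaperones, 3 oxidative folding genes, 2 UPR sensors and 2 ERAD genes) and 0 lower, against 6.68% of all genes higher. DESeq2 called 9 members, the same 6 with Sdf2l1, Hyou1 and Pdia3, and 0 of the ERAD and translocon class, against 1.47% of all 25519 genes it fitted.

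The median log2 change was 0.14 over the chaperones, 0.13 over oxidative folding, 0.07 over the UPR sensors and 0.01 over ERAD and the translocon, beside 0.00 over all genes tested. Of the chaperones 10 of 11 had a positive change, and of the ERAD and translocon genes 7 of 14, beside 50.8% of all genes tested. All 6 old NACET libraries lay above all 4 old controls for 6 members, namely Hspa5, Calr, Manf, Pdia3, Creld2 and Xbp1, against 1.63% of all genes. The members are not replicates of a class, so the classes were described and not tested against each other.

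**Figure D1:**
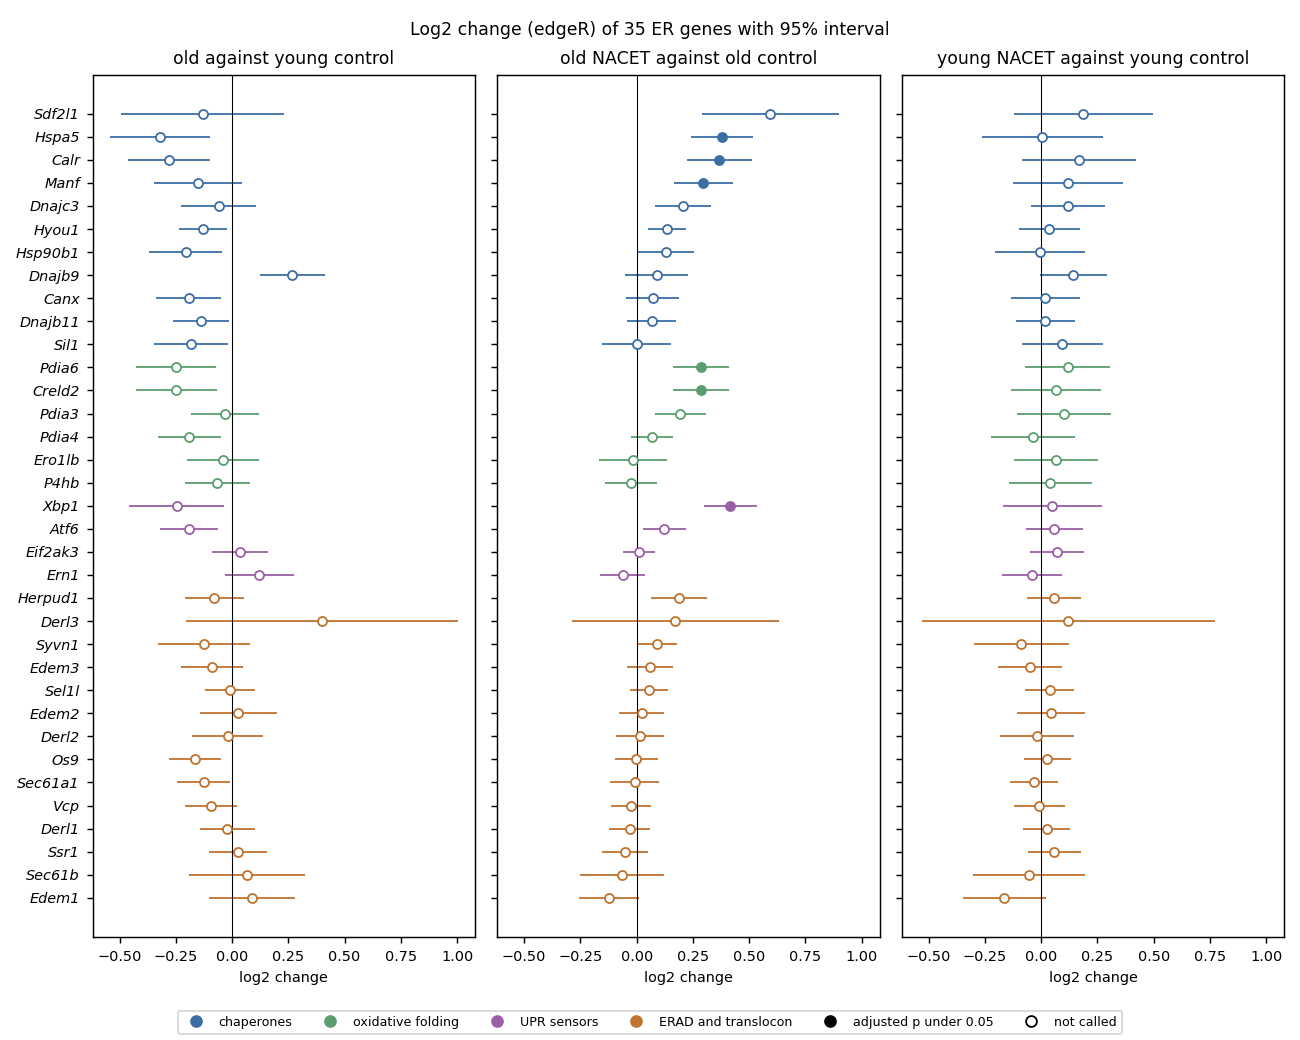
Log2 change with its 95% interval (horizontal axis) of the 35 members, grouped by class and ordered by the change under NACET in old mice, for old against young control, old NACET against old control, and young NACET against young control. Filled points are called at an adjusted p under 0.05: the middle panel holds 6 filled points, all to the right of 0, and the outer panels hold 0.

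Among the chaperones, Hspa5 (chr2:34627490-34632051 in the mm9 assembly, protein coding) encodes BiP, the ER member of the HSP70 family. Its level was 236, 262, 287 and 253 CPM in the 4 old controls, and 297 CPM at the lowest, 342 at the median and 359 at the highest in the 6 old NACET mice. Young controls stood at 340, 278, 291 and 391 CPM. The old groups did not overlap, the old controls had the lowest mean of the 4 groups, and the old NACET mice lay within the range of the young controls. The log2 change under NACET was 0.38 (SE 0.06, 95% interval 0.24 to 0.52, adjusted p = 0.0295 in edgeR).

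Calr (chr8:87365749-87370833 in mm9, protein coding) encodes calreticulin, the soluble lectin chaperone and calcium store of the ER. Old controls held 245, 273, 256 and 299 CPM, and old NACET mice 318, 345 and 390 CPM at the lowest, median and highest. The groups did not overlap, although the nearest libraries were only 299 and 318 CPM. NACET gave a log2 change of 0.37 (SE 0.07, interval 0.22 to 0.51, adjusted p = 0.0384).

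Manf (chr9:106740643-106794310 in mm9, protein coding) encodes a secreted ER protein with neurotrophic activity that binds BiP. Old controls were tightly grouped at 29.1, 30.2, 29.3 and 30.5 CPM. Old NACET mice had 31.8, 36.7 and 40.5 CPM at the lowest, median and highest, all above the controls. This was a log2 change of 0.30 (SE 0.06, interval 0.16 to 0.43, adjusted p = 0.0490).

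Sdf2l1, a component of the BiP chaperone cycle, had the largest change of the members but was not called. It rested on few reads, with 57 to 98 counts in old controls and 95 to 142 in old NACET mice. Its levels were 3.68 ± 0.77 CPM (SD, n = 4) and 5.52 ± 0.75 CPM (n = 6), a log2 change of 0.59 (SE 0.14, adjusted p = 0.0744). Dnajc3 (0.21) and Hyou1 (0.14), a co-chaperone that also inhibits PERK and a nucleotide exchange factor of BiP, had intervals above 0 without being called. The same held for Hsp90b1 (0.13, interval 0.00 to 0.25). Canx, Dnajb9 and Dnajb11 had log2 changes of 0.07 to 0.09 with intervals that include 0. Sil1, the other exchange factor of BiP, stood at 23.1, 24.5, 21.4 and 24.7 CPM in old controls and 21.5, 23.0 and 27.2 CPM (lowest, median, highest) in the treated ones. Its change of 0.00 on the log2 scale had an interval of -0.15 to 0.15.

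In oxidative folding, Pdia6 (chr12:17273351-17291576 in mm9, protein coding) encodes a protein disulfide isomerase that also acts on the sensor IRE1. Old controls had 78.1, 76.2, 80.3 and 90.5 CPM, and old NACET mice 88.9, 101 and 106 CPM at the lowest, median and highest. Old control replicate 4 was the highest control, and 1 NACET library lay below it. The difference amounted to a log2 change of 0.29 (SE 0.06, interval 0.16 to 0.41, adjusted p = 0.0489).

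Creld2 (chr15:88650076-88657111 in mm9, protein coding) encodes an ER protein with disulfide isomerase activity that is induced by ER stress. Old controls had 19.8, 21.3, 22.0 and 22.4 CPM, and old NACET mice 24.8, 25.8 and 28.3 CPM at the lowest, median and highest. The groups did not overlap, and the log2 change was 0.29 (SE 0.06, interval 0.16 to 0.41, adjusted p = 0.0489). Of the other isomerases, Pdia3 had 160 ± 8.47 CPM in old controls and 183 ± 10.8 CPM in old NACET mice, with no overlap and an adjusted p of 0.109 for its log2 change of 0.19. Pdia4 (0.07), P4hb (-0.02) and the oxidase gene Ero1lb (-0.02) had intervals that include 0.

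Among the sensors and regulators, Xbp1 (chr11:5420662-5425896 in mm9, protein coding) encodes the transcription factor whose messenger is spliced by IRE1, and the gene counts do not separate its spliced form. Old controls had 56.7, 54.8, 63.9 and 56.2 CPM, and old NACET mice 69.2, 77.6 and 82.6 CPM at the lowest, median and highest. The groups did not overlap. The log2 change was 0.42 (SE 0.06, interval 0.30 to 0.53, adjusted p = 0.0103), the smallest adjusted p of the 35 members.

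Atf6, the sensor that becomes a transcription factor when cut in the Golgi, had 113, 117, 120 and 127 CPM in old controls and 119, 131 and 138 CPM (lowest, median, highest) in old NACET mice. The groups overlapped, and its log2 change of 0.12 had an adjusted p of 0.229. The kinase sensors had intervals that include 0. Eif2ak3 had 56.2 ± 1.40 CPM in old controls and 56.5 ± 0.45 CPM in old NACET mice, with an interval for the log2 change of -0.06 to 0.08. Ern1 had 63.5 ± 4.27 and 60.7 ± 1.62 CPM, with an interval of -0.16 to 0.04.

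No gene of ERAD or the translocon was called in old mice under NACET (edgeR, 2 at an unadjusted p under 0.05, 0 by DESeq2). Herpud1, an ER membrane protein that organizes the ERAD complex, had 63.3, 60.1, 61.4 and 56.3 CPM in old controls and 63.3, 67.4 and 78.3 CPM (lowest, median, highest) in old NACET mice. The groups met at 63.3 CPM, and the log2 change of 0.19 had an adjusted p of 0.153. Syvn1, the ubiquitin ligase of ERAD, had 74.2, 81.0, 76.8 and 74.0 CPM against 78.3, 81.2 and 84.2 CPM, with overlap and a log2 change of 0.09 (adjusted p = 0.303). The other 12 members of the class had log2 changes from -0.12 (Edem1) to 0.17 (Derl3). Apart from the sparse Derl3, every interval in the class lay between -0.25 and 0.31.

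**Figure D2:**
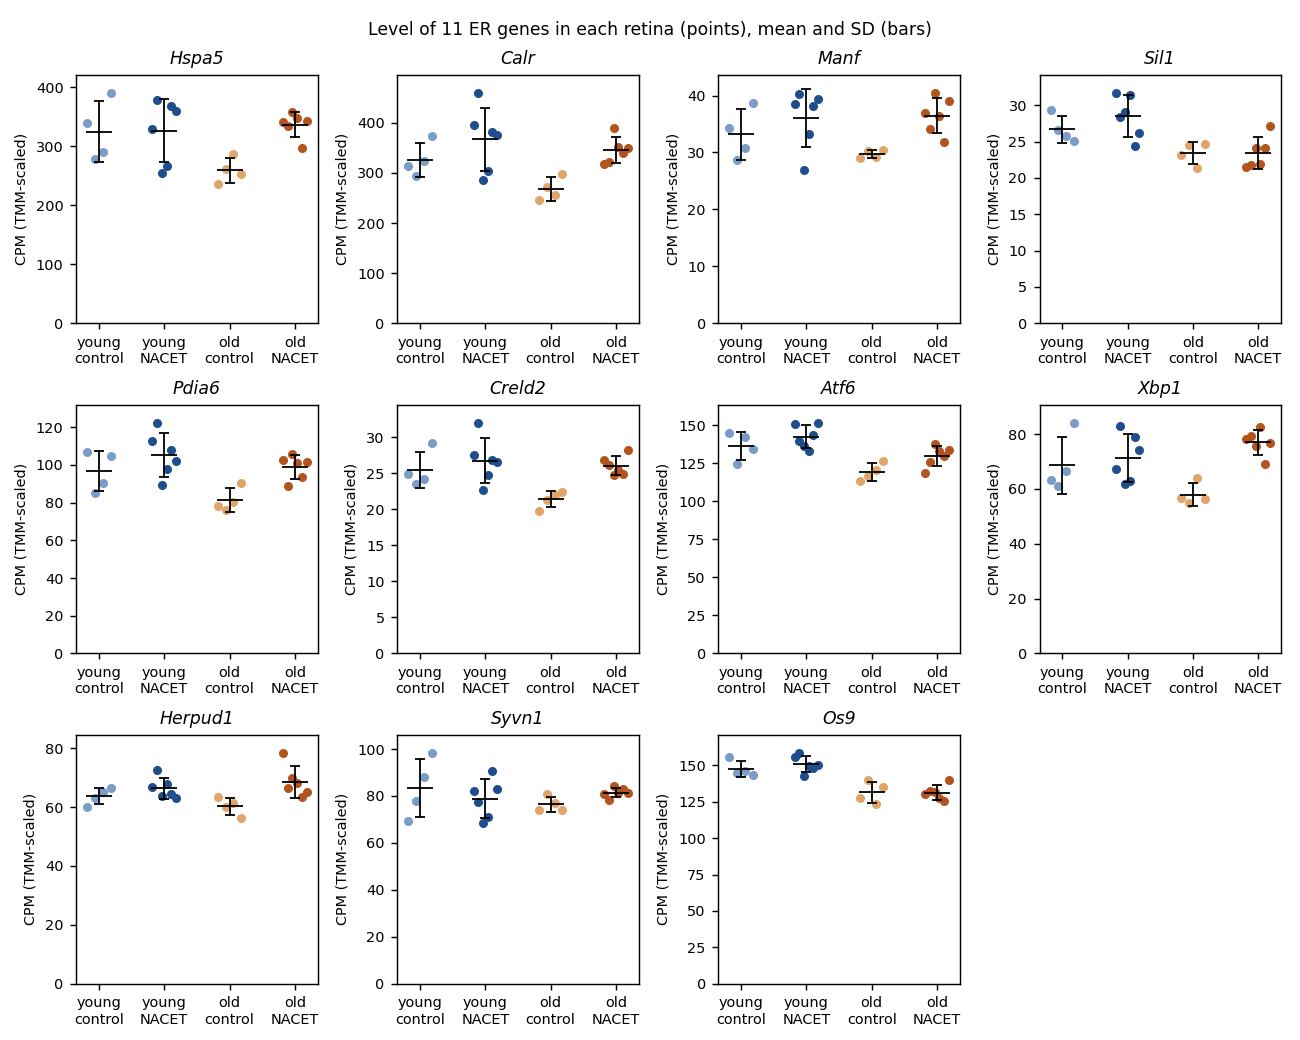
Level in TMM-scaled CPM (vertical axis, from 0) of the 11 members given library by library, in the 4 groups. Points are retinas, and bars are the mean and SD. For Hspa5, Calr, Manf, Creld2 and Xbp1 all 6 old NACET points lie above all 4 old control points, and for Sil1 and Os9 both old groups lie below most young NACET points.

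These calls depended on which mice entered the fit. With only the 668-day mice (4 controls and 2 NACET) no member was called by edgeR, and 0% of all 16839 genes were. At an unadjusted p under 0.05 there were 10 members, against 8.29% of all genes. The log2 changes were then 0.39 for Hspa5, 0.27 for Calr, 0.27 for Manf, 0.25 for Pdia6, 0.32 for Creld2 and 0.46 for Xbp1. With the age cohort as a covariate 0 members were called, where 1 gene of all 16562 was (0.00604%). In a fit of all 4 groups it was again 0 members, with 1 gene of 16993 called (0.00588%). Nearly no gene was therefore called in these 3 fits. At each age the Xbp1 levels of the NACET mice (78.3 and 79.3 CPM at 668 days, 75.7 and 82.6 at 581 days, 69.2 and 76.9 at 574 days) lay above every old control. The same held for Hspa5, with 334 and 342 CPM at 668 days, 348 and 359 at 581 days, and 297 and 343 at 574 days.

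Leaving out any 1 library left 1 to 4 called members, while the count over all genes moved from 90 to between 8 and 110. At an unadjusted p under 0.05 these fits held 12 to 14 members, among 1730 to 2643 genes of all tested. Only Xbp1 was called in all 10 of these fits, and it was the only call without old control replicate 2, old NACET replicate 3 or old NACET replicate 4, where 8, 12 and 13 genes of all tested were called. Hspa5 was called in 6 of the 10, Calr in 3, Pdia6 in 2, Manf in 1 and Creld2 in 0. Their log2 changes in these fits stayed at 0.33 to 0.43 for Hspa5, 0.32 to 0.42 for Calr, 0.26 to 0.34 for Pdia6, 0.27 to 0.33 for Manf, 0.25 to 0.31 for Creld2 and 0.39 to 0.47 for Xbp1. Without old control replicate 4, whose Xist went against its label, Calr, Pdia6 and Xbp1 were called among 15 genes. Without old NACET replicate 1 and old control replicate 2, the libraries with lens or corneal genes, Hspa5, Calr and Xbp1 were called among 25 genes. All 6 genes kept a positive change in all 22 alternative fits.

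Other gene lists were summed in the same old groups, and their part in the result was not tested. Only the immediate early genes did not overlap between the old groups. The cone, microglia, connective tissue and skeletal muscle lists overlapped too and are not given below. The 9 immediate early genes, all detected, summed to 113 to 158 CPM in old controls and 83.5 to 93.6 CPM in old NACET mice, without overlap. The 8 genes of the retinal pigment epithelium, all detected, summed to 103 to 227 CPM in old controls and 36.9 to 121 CPM in old NACET mice. The 10 rod genes summed to 69484 to 87938 CPM and 62885 to 77295 CPM. The 8 Muller glia genes summed to 2769 to 3096 CPM and 2954 to 3301 CPM. The 8 corneal and conjunctival genes summed to 10.2 to 442 CPM in old controls (median 38.6) and 3.24 to 18.9 CPM in old NACET mice (median 9.27). The 8 lens genes had medians of 5.88 and 1.16 CPM, but reached 22.0 CPM in old controls and 10896 CPM in old NACET replicate 1. The 5 blood genes ranged over 6.29 to 91.2 CPM and 5.06 to 7.20 CPM. No gene of these 7 lists was at 0 in either group.

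Averaged over a class, the values by library overlapped between the old groups in oxidative folding and in ERAD and the translocon, and in neither of the other classes. The class mean of log2(CPM + 1), relative to the young control mean, was -0.22 to -0.08 for the chaperones in old controls and -0.01 to 0.17 in old NACET mice. For oxidative folding the ranges were -0.19 to -0.07 and -0.08 to 0.06, which meet. For the UPR sensors they were -0.11 to -0.02 and 0.02 to 0.08. This class holds only 4 genes, with log2 changes of 0.42 for the regulator Xbp1, 0.12 for Atf6, 0.01 for Eif2ak3 and -0.06 for Ern1. Its mean therefore does not describe the kinase sensors. For ERAD and the translocon the ranges were -0.06 to 0.00 and -0.04 to 0.03, which overlap, with 1 control below every NACET library and 2 NACET libraries above every control.

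**Figure D3:**
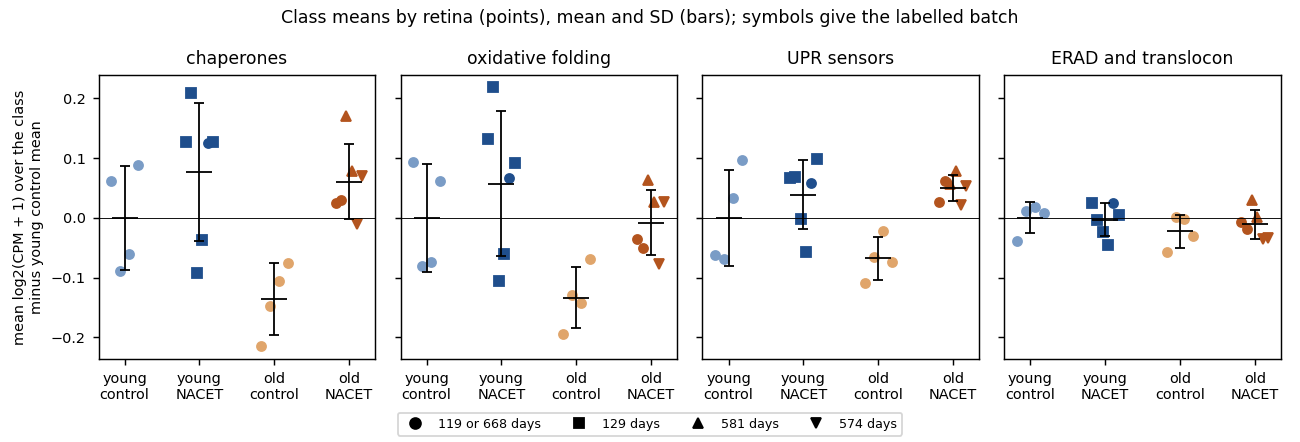
Mean over each class of log2(CPM + 1) minus the young control mean (vertical axis) in each retina, by group, with the mean and SD as bars and the labelled age cohort as symbols. In the chaperone panel old controls sit between -0.22 and -0.08 and old NACET mice between -0.01 and 0.17, whereas in the ERAD and translocon panel all 4 groups lie between -0.06 and 0.03.

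Old controls were lower than young controls for most of the folding genes, but no member passed the test. Aging and NACET in old mice share the 4 old controls, so their values are set side by side and not correlated. In edgeR 0 of 35 members were called, against 1.42% of all 16484 genes tested, and 3 were called by DESeq2 (Hspa5, Calr and Dnajb9), against 2.86% of the 25177 genes it fitted. At an unadjusted p under 0.05, 14 members were lower in old mice, against 7.24% of all genes, and 1 was higher. The 14 were 7 chaperones, 3 oxidative folding genes, 2 UPR sensors and 2 ERAD or translocon genes. The 15 members at this level (2687 genes of all tested) became 8 without old control replicate 1 (2657 genes). Without any other library they became 12 to 14 (2054 to 3215 genes). Since 2 of the 4 young controls were labelled female and old controls male, the count was also taken by sex. It was 8 members with labelled males only (2145 genes), 9 with labelled sex as a covariate (2276 genes) and 6 with only libraries under 10 CPM of Xist (1733 genes).

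The log2 change with age was -0.32 for Hspa5 (SE 0.10, adjusted p = 0.147), -0.28 for Calr (SE 0.08, adjusted p = 0.125) and -0.15 for Manf (adjusted p = 0.429). It was -0.25 for Pdia6, for Creld2 and for Xbp1, with adjusted p of 0.164, 0.173 and 0.235. Young controls spread widely for these genes, as for Xbp1 at 63.3, 61.2, 66.4 and 84.0 CPM. Of the 6, Creld2 alone had old controls wholly below young controls, which stood at 24.8, 23.6, 24.3 and 29.1 CPM. In all, 8 members had old controls wholly below young controls, against 4.45% of all genes: Dnajb11, Hyou1, Sil1, Pdia4, Creld2, Os9, Vcp and Sec61a1.

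Dnajb9, a co-chaperone of BiP that represses IRE1, went the other way. It had 21.1, 20.1, 19.8 and 20.3 CPM in young controls and 23.8, 24.2, 26.1 and 23.6 CPM in old controls, without overlap. The log2 change of 0.27 (SE 0.07) had an adjusted p of 0.0753 in edgeR, the smallest of the members with age, and passed the threshold in DESeq2 and in the fit of all 4 groups. The sensors parted as well: Atf6 had a log2 change of -0.19 (adjusted p = 0.138), while Ern1 (0.12) and Eif2ak3 (0.04) had intervals that include 0. By class the median log2 change was -0.15 for the chaperones, -0.13 for oxidative folding, -0.08 for the UPR sensors and -0.02 for ERAD and the translocon, beside -0.01 over all genes.

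In young mice no member passed the test under NACET. In edgeR 0 of 35 were called and 0 had an unadjusted p under 0.05, where 0% of all 16588 genes were called and 4.36% had an unadjusted p under 0.05, and DESeq2 also called 0. The controls were all 119 days old and most NACET mice 129 days. With the days of the batch tag as a covariate, 0 members were called and 0 had an unadjusted p under 0.05 (224 genes of all tested). With the age in the title as a covariate, 0 were called and 2 were at that level (619 genes). Young NACET mice had 255, 345 and 379 CPM of Hspa5 at the lowest, median and highest, and 62.0, 70.7 and 82.9 CPM of Xbp1. Both ranges overlap those of the young controls. The log2 change was 0.00 for Hspa5 (SE 0.12) and 0.05 for Xbp1 (SE 0.10). The intervals were wide: over the chaperones their ends reached -0.26 and 0.50. Calr had 287, 378 and 460 CPM, a log2 change of 0.17 (SE 0.12). Pdia6 had 89.3, 105 and 122 CPM, and Creld2 had 22.7, 26.7 and 31.9 CPM. The classes stood in the same order as in old mice, with smaller medians for all but ERAD and the translocon. The median log2 change was 0.09 for the chaperones, 0.07 for oxidative folding, 0.05 for the UPR sensors and 0.01 for ERAD and the translocon. Over all genes tested it was -0.005. A positive change was seen in 10 of 11 chaperones and 7 of 14 ERAD and translocon genes, beside 48% of all genes tested. The counts were the same in old mice, but members of a class are not independent, so equal counts do not show an equal response.

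Whether the response differed between old and young mice was tested as the interaction of NACET with age over all 20 libraries. In edgeR 0 members were called, where 0% of 16993 genes were called, and DESeq2 called 0 members, against 0.324% of the 26509 genes it fitted. At an unadjusted p under 0.05, 2 members were positive, Xbp1 and Hspa5, against 2.27% of all genes. That count of 2, in either direction (1052 genes of all tested), fell to 1 without young control replicate 4 (959 genes). It rose to 5 without young NACET replicate 2 (1246 genes) and to 4 without young NACET replicate 5 (1103 genes). With only libraries under 10 CPM of Xist it was 1 (905 genes). The difference in log2 change was 0.36 for Xbp1 (SE 0.12, interval 0.11 to 0.62, adjusted p = 0.498) and 0.37 for Hspa5 (SE 0.15, interval 0.06 to 0.68, adjusted p = 0.685). For Calr it was 0.20 with an interval of -0.10 to 0.49. A difference between the ages was therefore not shown for any member. The NACET mice of 129, 581 and 574 days had no control of their own age in this test.

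Between old and young NACET mice none of the 6 genes that rose in old mice was called, and 2 other members fell with age. Of all 16276 genes, 4.88% were called in either direction and 2.64% were called lower. The count of 2 among 35 members is near the share in either direction, so it does not set the members apart. Os9 (chr10:126531315-126558216 in mm9, protein coding) had 143, 150 and 158 CPM (lowest, median, highest) in young NACET mice and 126, 131 and 140 CPM in old NACET mice, without overlap. The log2 change was -0.20 (SE 0.04, adjusted p = 0.00942). In the controls Os9 had 156, 145, 146 and 143 CPM in young and 127, 140, 124 and 135 CPM in old mice, a log2 change of -0.16 that was not called (adjusted p = 0.160).

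Sil1 had 24.4, 28.7 and 31.7 CPM in young NACET mice and 21.5, 23.0 and 27.2 CPM in old NACET mice, with overlap. The log2 change was -0.28 (SE 0.07, adjusted p = 0.0357). In the controls it had 29.3, 26.6, 25.7 and 25.1 CPM in young mice and a log2 change with age of -0.18 (adjusted p = 0.257). Os9 stayed called in all 12 fits that left out 1 library, and Sil1 in 3 of the 12. Without young NACET replicate 1, 2, 3 or 4, or old NACET replicate 1, 2, 3, 4 or 5, the count of members was 1. Over the 12 fits, 478 to 922 genes of all tested were called. With labelled males only, Os9, Sil1 and Dnajb9 were called among 1006 genes. The old NACET mice came from 3 age cohorts and the young ones from others, so cohort and age cannot be told apart. For the 6 genes that rose in old mice under NACET, the log2 change between these groups ran from -0.09 (Pdia6) to 0.12 (Xbp1), with adjusted p from 0.355 to 0.914.

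The 10 members with an exact ERSE had a median log2 change under NACET in old mice of 0.19, from -0.02 (Ero1lb) to 0.38 (Hspa5), and 4 of them were called. The 19 members with a window but no ERSE had a median of 0.02, and 1 of them, Xbp1, was called. With age in controls the medians with and without an ERSE were -0.20 and -0.03. Manf, the remaining called member, had no window and enters neither set. The ERSE was held by 5 of 8 chaperones and 3 of 6 oxidative folding genes, but by 2 of 12 ERAD and translocon genes. Motif and class can therefore not be told apart here. Of the genes with an ERSE that are not members, 11 were tested under NACET in old mice. Their log2 changes ran from -0.72 to 0.37 with a median of 0.07, and 8 were positive. In edgeR 0 were called and 3 had an unadjusted p under 0.05, beside 2393 of all 16562 genes at that level. With 0.543% of all genes called, a count of 0 among 11 does not set them apart. Within the members, the ERAD gene Syvn1 and the oxidase gene Ero1lb hold the element with log2 changes of 0.09 and -0.02 that were not called. With 1 mismatch allowed in the fixed bases, 16 of 29 members and 1.72% of all genes with a window held the element.

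**Figure D4:**
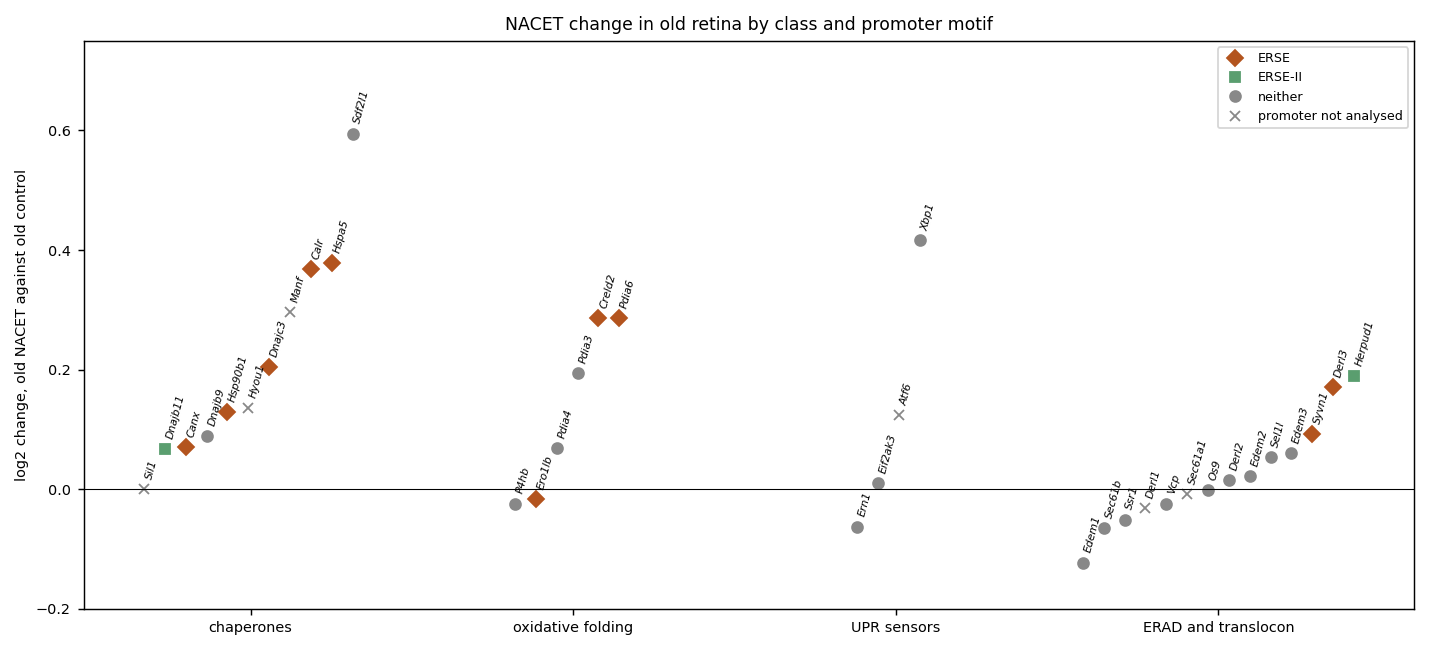
Log2 change of old NACET against old control (vertical axis) for the 35 members by class, with the symbol giving the motif found in the promoter window. Diamonds (ERSE) run from -0.02 to 0.38, and of the 2 highest points, Sdf2l1 at 0.59 and Xbp1 at 0.42, neither holds an ERSE.

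Among mice of the same group some of the folding genes varied with Hspa5. For each gene the group mean of log2(CPM + 1) was removed, and the deviations of the 20 retinas were compared with those of Hspa5. All points share their library with Hspa5, and the correlations are a description. Both young groups mix labelled sexes and both NACET groups mix ages, and neither was removed from the deviations. Pearson's r with Hspa5 was above 0.7 for 9 of the 33 other members above 1 CPM in at least 4 libraries, against 0.900% of 15440 genes. These were Pdia3 (r = 0.89, Spearman rho 0.90), Manf (0.88, 0.87), Xbp1 (0.86, 0.84), Hyou1, Pdia4, Creld2, Calr, Pdia6 and Hsp90b1, the last with r = 0.72. They comprised 4 of 10 chaperones, 4 of 6 oxidative folding genes, 1 of 4 UPR sensors and regulators (Xbp1) and 0 of 13 ERAD and translocon genes.

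Ero1lb (-0.50), Sil1 (-0.36) and Eif2ak3 (-0.36) had the lowest r of the members. The highest in the ERAD and translocon class was Vcp, the ATPase that extracts proteins from the membrane, at 0.63. The retinas farthest from their group mean for Hspa5 were young NACET replicates 3 and 4. Without them r was 0.86 for Manf, 0.82 for Xbp1 and 0.81 for Pdia3, and it dropped to 0.54 for Hsp90b1, 0.61 for Calr, 0.64 for Pdia6 and 0.70 for Hyou1 (just under the threshold). With Pdia4 and Creld2 this left 5 members above 0.7, against 0.201% of all genes.

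**Figure D5:**
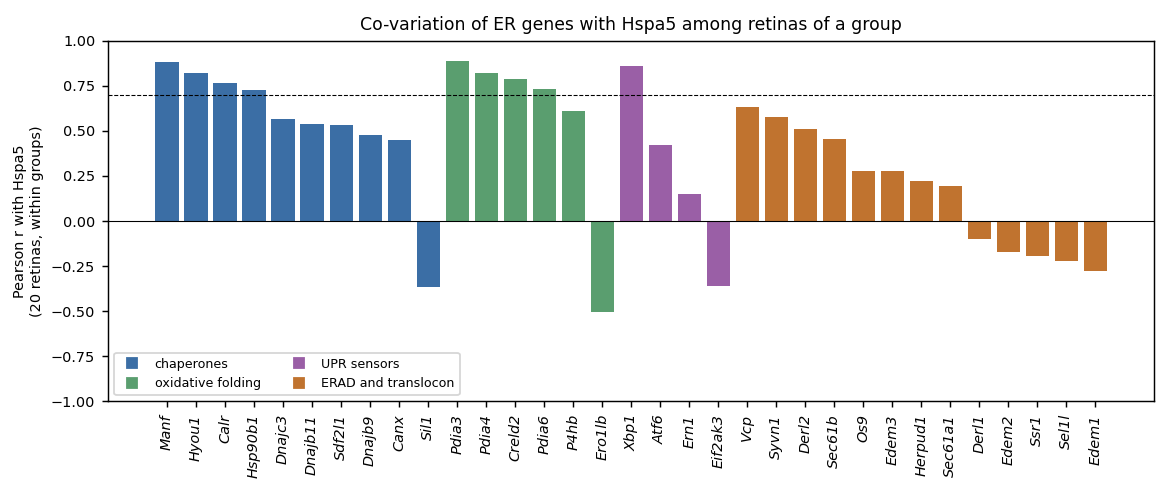
Pearson's r with Hspa5 of within-group deviations in log2(CPM + 1) over 20 retinas (vertical axis) for 33 members, by class. The dashed line marks 0.7: 9 bars pass it, and none of the ERAD and translocon class does.

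The other genes of the ER pathway were read from the same fits as a wider list of 96, of which 95 were in the files and 94 were tested. Under NACET in old mice 0 were called in edgeR, against 0.543% of all genes, and their median log2 change was 0.00. At an unadjusted p under 0.05, 7 were higher and 5 lower, beside 1106 and 1287 of all 16562 genes. With age in controls 0 were called, with 9 higher and 10 lower at that level, beside 1494 and 1193 of all 16484 genes. In young mice under NACET 0 were called, with 0 higher and 2 lower, beside 363 and 361 of all 16588 genes. Between old and young NACET mice 8 were called, 7 of them lower in old mice, against 4.88% of all 16276 genes called and 2.64% called lower. The 5 with the smallest p were Wfs1, an ER membrane protein of calcium balance (log2 change -0.25), the disulfide isomerase gene Txndc5 (-0.34), the ER peroxidase gene Prdx4 (-0.45), Ostc of the oligosaccharyltransferase (-0.30) and the chaperone gene Clgn (0.37), with adjusted p from 0.00613 to 0.0248.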

How the data were processed

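Messenger RNA was measured in 20 mouse retinas, 1 per mouse. The deposited files hold raw counts per gene, and per the labels the authors aligned single-end TruSeq reads to mm9 with TopHat2 2.1.0 and counted exons with HTSeq 0.11.2. Per the methods of the study, counting ignored strand. The annotation used for counting is not given in the sources used here, and reads over overlapping genes may be split or lost. A row with no gene name held 0.000942% to 0.00218% of counts and was left out. Depth was 17.7 to 31.1 M gene counts per library.

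Each pair of groups was fitted alone with edgeR 4.0.16 in R 4.3.3 (TMM, default filter, quasi-likelihood test, Benjamini-Hochberg over all genes), and the interaction over all 20 libraries. Calls were made at an adjusted p below 0.05. The script was tested on simulated data. Levels are TMM-scaled CPM, and class means used log2(CPM + 1). DESeq2 1.42.0, other filters and scalings, a replicate block, sex, age cohort and leaving out libraries were alternatives. Motifs, exon lengths (GENCODE, mm9) and correlations were computed in Python 3.11.15.

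The members and lists were chosen with earlier results of these data known. Values by library are given for members called in a comparison and for the 2 members of each class with the smallest p for NACET in old mice. Of the other pathway genes, at most 5 called per comparison are named. Sdf2l1, Dnajb9, Pdia3 and other members outside this rule were named after their values were seen. Protein sequences were not used here.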

Additional observations from a re-analysis of the deposited data

Results flagged for a closer look

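Of 140 sets of values (35 members in 4 groups), 2 held a library far from the others of its group, where chance gives about 1 in 20. Hsp90b1 stood at 567 CPM in old NACET replicate 3, against 482 to 494 CPM in the other 5 old NACET mice. P4hb stood at 240 CPM in young control replicate 1, against 203 to 205 CPM in the other 3 young controls. Neither gene was called in a comparison.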

How the results depend on the processing

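The number of called members depended on the fit. Under NACET in old mice it was 6 members among 90 genes called over all tested. It was 9 among 375 with DESeq2 and 4 among 78 with a filter at 1 CPM in 4 libraries. With libraries under 10 CPM of Xist only it was 3 among 15, and with the Xist level as a covariate 3 among 14. Without the libraries with lens or corneal genes (chosen after seeing the data) it was 3 among 25. It was 0 with all 4 groups in 1 fit and 0 with the age cohort as a covariate, where 1 gene of all tested was called in each. With the 668-day mice only it was 0, where 0 genes were called. Leaving out 1 library gave 1 to 4, among 8 to 110 genes. With age in controls (0 members among 234 genes) DESeq2 called 3 among 721 and the fit of all 4 groups called 1 among 461. Between old and young NACET mice (2 members among 795 genes), leaving out 1 library gave 1 to 3 among 478 to 922. With the replicate number as a block, 2 members were called under NACET in old mice (Hspa5 and Xbp1) among 17 genes. Between old and young NACET mice this block gave 0 members among 422 genes. Libraries of the same number correlated at -0.14 to 0.13, so the numbers were not taken to pair the mice. The median of the UPR sensors under NACET in old mice moved from 0.067 to 0.031 with the 668-day mice only and to 0.0296 with the age cohort as a covariate. The median with age moved to 0.0031 for the UPR sensors with libraries under 10 CPM of Xist only, and ranged from -0.0389 to 0.0067 for ERAD and the translocon without 1 library. The cause was not tested. No called value reversed in 113 alternatives, and 190 values that were not called changed sign. RLE scaling, no filter and a robust fit kept the counts of called members. Counts of 57 to 142 limit the precision for Sdf2l1.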
